A study of Arabidopsis thaliana with 6 samples.

Results

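Of the 454 *Arabidopsis thaliana* genes in the deposited table, 50 stood at no more than 0.5 of their Col-0 level in *sr45* seedlings while they kept at least 0.8 of it in the seedlings labelled *sap18*. The members were chosen by the ratio of the mean of the 2 libraries of a line to the mean of the 2 Col-0 libraries, and 12 genes were left out by name, of which *RFS2*, *MYC2* and *EXL1* met both ratios. The same values therefore chose the genes and are reported here, so for the members they are a description without any test. Both ratios also share the Col-0 libraries. Of the 258 genes at or under 0.5 in *sr45*, 205 fell short of 0.8 in the *sap18*-labelled libraries, and 70 of these were at or under 0.5 there as well.

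mRNA was measured by RNA sequencing of whole seedlings, with 2 libraries of *sr45*, 2 labelled *sap18* and 2 of Col-0, the wild-type accession. The lines are T-DNA insertion mutants in the Col-0 background, *sr45-1* in the gene for the splicing factor SR45 and *sap18* in the gene for SAP18, and each stands for its gene through 1 insertion. No treatment is named for any group. All seedlings are given as 11 days old, although the legend of the study's figure on these lines names a slightly lower age. They were raised on MS plates at 22 °C under a cycle of 16 h light and 8 h dark. This followed 48 h of stratification at 4 °C, and each RNA came from 100 mg of pooled seedlings. Levels are given in cRPKM, reads corrected for the mappable length of the gene and for the size of the library, which makes genes of different length comparable. In whole seedlings, fewer cells of a type and less RNA per cell cannot be told apart, and none of 6 shoot and 9 root marker genes was in the table, so the tissue could not be checked.

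The titles and genotype labels of the *sap18*-labelled libraries read *sap18sr45*, whereas their descriptions, the design text of the series and the methods read *sap18*. *SAP18* mRNA stood at 936 and 900.2 cRPKM in these libraries, 75.6 and 94.3 in *sr45* and 76.6 and 83.7 in Col-0, so it was 11.4 times the Col-0 level where a loss-of-function line was named. *SR45* mRNA, at 20.9 and 23.1 cRPKM in the *sap18*-labelled libraries against 23.1 and 19.4 in Col-0, was not lower there. The genotype was not tested, and every direction drawn from these libraries carries that doubt. No gene had the same value in both replicates of a group, and the correlation of replicates across genes lay between 0.969 and 0.989.

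SR45 is a serine/arginine-rich nuclear protein that takes part in the choice of splice sites and, with SAP18 and ACINUS, forms the ASAP complex, which binds RNAs during splicing and is found with the exon junction complex. Seedlings that lack SR45 are known to be oversensitive to glucose and abscisic acid. Plant cells keep a set of genes that sugar turns off and that darkness or exhausted carbohydrate turns on. Their products handle raffinose and other reserves, import hexoses, burn proline and other amino acids, and temper growth, and several were named dark-inducible (*DIN*) genes after this behaviour.

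The 50 members ranged between 0.244 and 0.498 of the Col-0 level in *sr45*, with a median of 0.436, and between 0.804 and 1.83 in the *sap18*-labelled libraries, with a median of 0.953. Over the whole table the medians were 0.482 and 0.752, and over the other 208 genes at or under 0.5 in *sr45* they were 0.416 and 0.549. In *sr45*, 3 members lay at or under 0.3, 13 between 0.3 and 0.4 and 34 between 0.4 and 0.5. Summed over the members, the level was 1030 and 1016 cRPKM in the *sr45* libraries, 2220 and 2269 in those labelled *sap18* and 2311 and 2318 in Col-0. Mean Col-0 levels of single members ran between 5.66 and 307 cRPKM with a median of 19.0, and 14 of them were under 10.

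**Figure D1:**
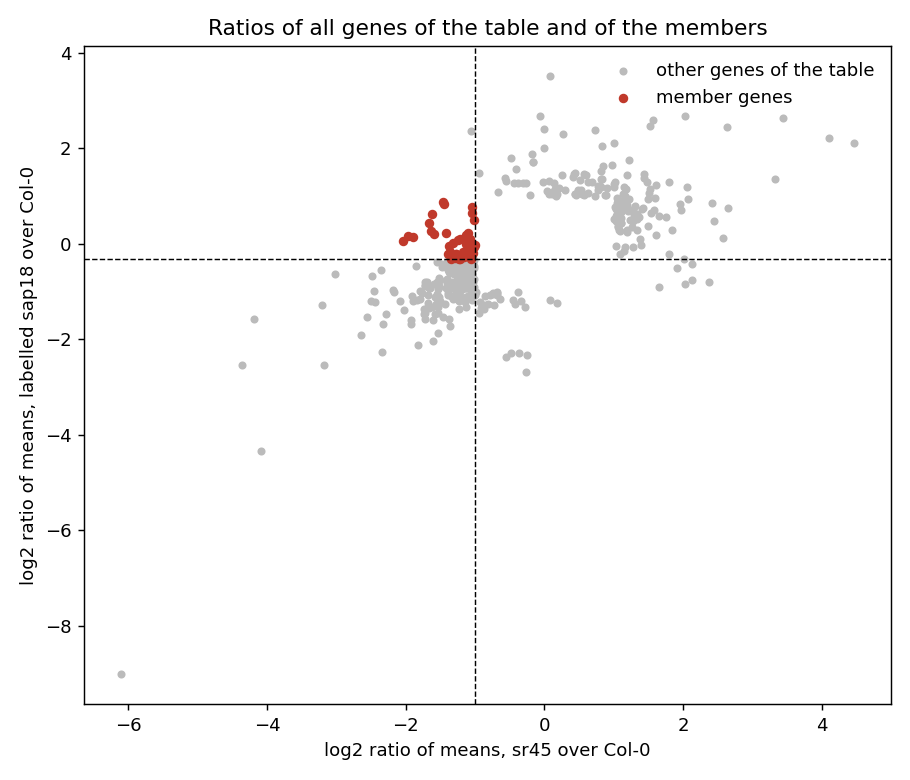
Each point is a gene of the table, with the log2 ratio of its means in *sr45* over Col-0 on the x axis and in the *sap18*-labelled libraries over Col-0 on the y axis, and dashed lines mark ratios of 0.5 and 0.8. The 50 member genes (red) fill the corner that the thresholds cut out, and 205 of the 258 genes left of the vertical line lie under the horizontal one.

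Both *sr45* libraries lay under both Col-0 libraries for 50 of the 50 members, against 62.3% of the table, and both *sap18*-labelled libraries lay over both *sr45* libraries for all 50, against 63.2% of the table. The thresholds largely fix these counts. The table holds mostly changed genes (limma called 61.0% of them lower and 27.5% higher in *sr45*), so its shares are no neutral background. A stricter fold criterion, in which all 4 ratios of an *sr45* to a Col-0 library are at most 0.5 and a group exceeds 5 cRPKM in both libraries, was met by 17 members (34%), against 30.2% of the table, from which nothing is read because the contrast chose the members. With a Col-0 or an *sr45* library left out only 2 ratios are needed, and the count was then 27 without Col-0 replicate 1, 31 without Col-0 replicate 2, 33 without *sr45* replicate 1 and 30 without *sr45* replicate 2. The share of the table was not counted with a library left out, so nothing is read from this rise. The standard error of a member's log2 difference to Col-0, from limma on log2(cRPKM + 1), was between 0.14 and 0.30 with a median of 0.17.

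**Figure D2:**
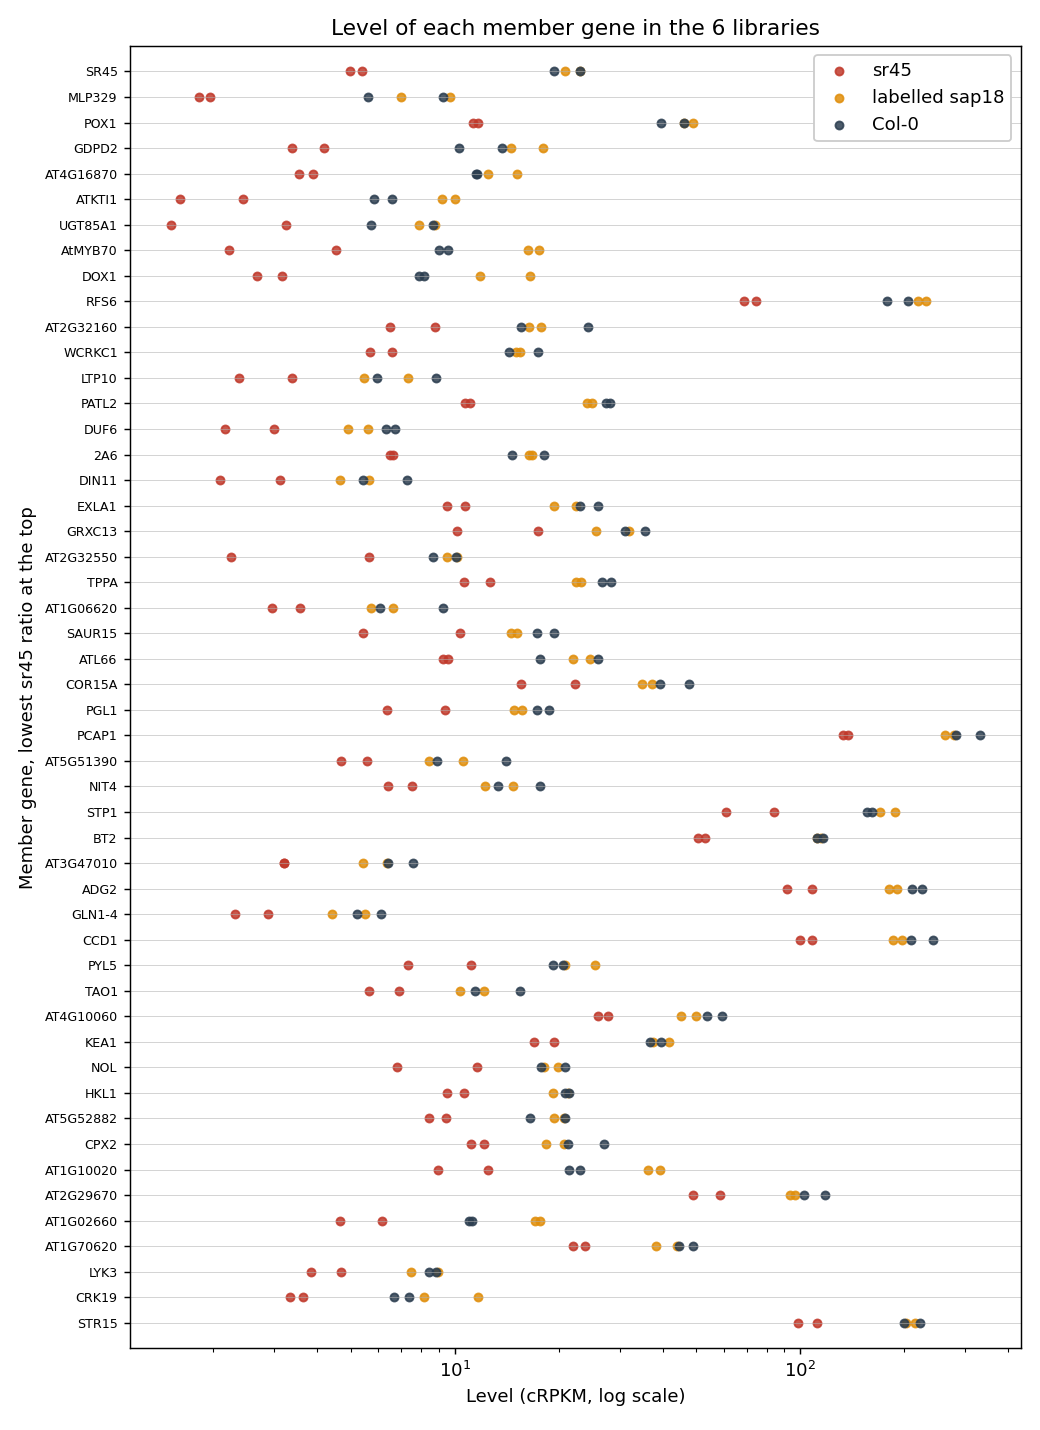
Each row is a member gene and each point a library, with the level in cRPKM on a log x axis, *sr45* in red, the *sap18*-labelled libraries in orange and Col-0 in dark blue. In every row both red points lie left of all others, whereas the orange and dark blue points overlap in 23 of the 50 rows.

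The gene of the mutant itself headed the list. *SR45* (AT1G16610, chromosome 1, 5675495 to 5678873 in TAIR10.1) had 5.39 and 4.98 cRPKM in *sr45*, 20.9 and 23.1 in the *sap18*-labelled libraries and 23.1 and 19.4 in Col-0. Its ratio of 0.244 was the lowest among the members. This low level goes with the label of the *sr45* libraries, but the rule used the value, and the genotype was not tested. The other 49 members had a median ratio of 0.436 in *sr45* and 0.949 in the *sap18*-labelled libraries.

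Genes of the sugar starvation response had the highest Col-0 levels of the groups described here, with a median of 137 cRPKM over the members. Of 26 listed genes 8 were in the table, 6 of them members, and the members' ratios had a median of 0.433 in *sr45* and 1.05 in the *sap18*-labelled libraries. For 3 of the 6 both *sap18*-labelled libraries lay over both Col-0 libraries. For the other 3 they overlapped, and for none did they lie under. Of all 50 members, 12 (24%) lay over and 15 (30%) under Col-0. The rule removes genes that stood lower in the *sap18*-labelled libraries, so shares of the whole table are no measure for a list. With 6 genes nothing is read from this split. This list and the ones that follow were written with the members known. How many listed genes of the table are members was therefore largely set by the lists, and nothing is read from those counts.

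*POX1* (AT3G30775, also *ERD5*), which encodes proline dehydrogenase, the mitochondrial enzyme that opens proline breakdown, had 11.3 and 11.7 cRPKM in *sr45*, 48.9 and 46.1 in the *sap18*-labelled libraries and 46.0 and 39.6 in Col-0. Means were 11.5 ± 0.247, 47.5 ± 2.03 and 42.8 ± 4.51 cRPKM (SD, n = 2 libraries each), so the gene was 3.73-fold lower in *sr45* and barely cleared Col-0 in the *sap18*-labelled libraries. *RFS6* (AT5G20250, also *DIN10*), a raffinose synthase family gene that rises in darkness, had 74.6 and 68.8 cRPKM in *sr45*, 219.6 and 232 in the *sap18*-labelled libraries and 205 and 179 in Col-0. Its means of 71.7 ± 4.06, 226 ± 8.79 and 192 ± 18.5 cRPKM (SD, n = 2 each) amount to a 2.67-fold lower level in *sr45* and a ratio of 1.18 in the *sap18*-labelled libraries.

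*STP1* (AT1G11260), the main proton symporter for the uptake of external hexoses, had 83.8 and 60.9 cRPKM in *sr45*, 171 and 189 in the *sap18*-labelled libraries and 156 and 162 in Col-0. The *sr45* libraries differed more from each other than those of the other groups, yet the higher of them stayed well under Col-0. *BT2* (AT3G48360), a BTB and TAZ domain scaffold protein whose mRNA sugar represses and nitrogen raises, had 53.1 and 50.7 cRPKM in *sr45*, 112 and 115 in the *sap18*-labelled libraries and 112 and 116 in Col-0. Its ratio of 0.994 in the *sap18*-labelled libraries was the closest to 1 of all members, and the spread of the 3 groups was small (SD 1.70, 1.74 and 2.92 cRPKM, n = 2 each).

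*STR15* (AT4G35770, also *SEN1* and *DIN1*), a rhodanese-like gene of senescence and darkness, had 98.5 and 112 cRPKM in *sr45*, 215 and 202 in the *sap18*-labelled libraries and 200.4 and 222 in Col-0. At a ratio of 0.498 it was the member nearest to the *sr45* threshold. *DIN11* (AT3G49620), a 2-oxoglutarate-dependent dioxygenase gene, was much weaker, with 3.12 and 2.09 cRPKM in *sr45*, 5.64 and 4.64 in the *sap18*-labelled libraries and 5.41 and 7.26 in Col-0. Its closest copy in the genome, AT3G49630, shares 88.3% of the coding bases, so a share of these reads may belong to that gene.

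Of the listed starvation genes that are no members, *RFS2* (AT3G57520), another raffinose synthase family gene, had 14.0 and 11.95 cRPKM in *sr45*, 33.4 and 31.4 in the *sap18*-labelled libraries and 37.0 and 30.3 in Col-0. Its ratios were 0.385 in *sr45* and 0.964 in the *sap18*-labelled libraries, which overlapped with Col-0. *EXL1* (AT1G35140), an exordium-like gene of the response to low carbon, had 2.60 and 0.758 cRPKM in *sr45*, 16.5 and 19.5 in the *sap18*-labelled libraries and 4.64 and 2.33 in Col-0, with ratios of 0.482 and 5.16. Both genes met the ratios of the rule and were left out by name, so they too are described without a test.

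**Figure D3:**
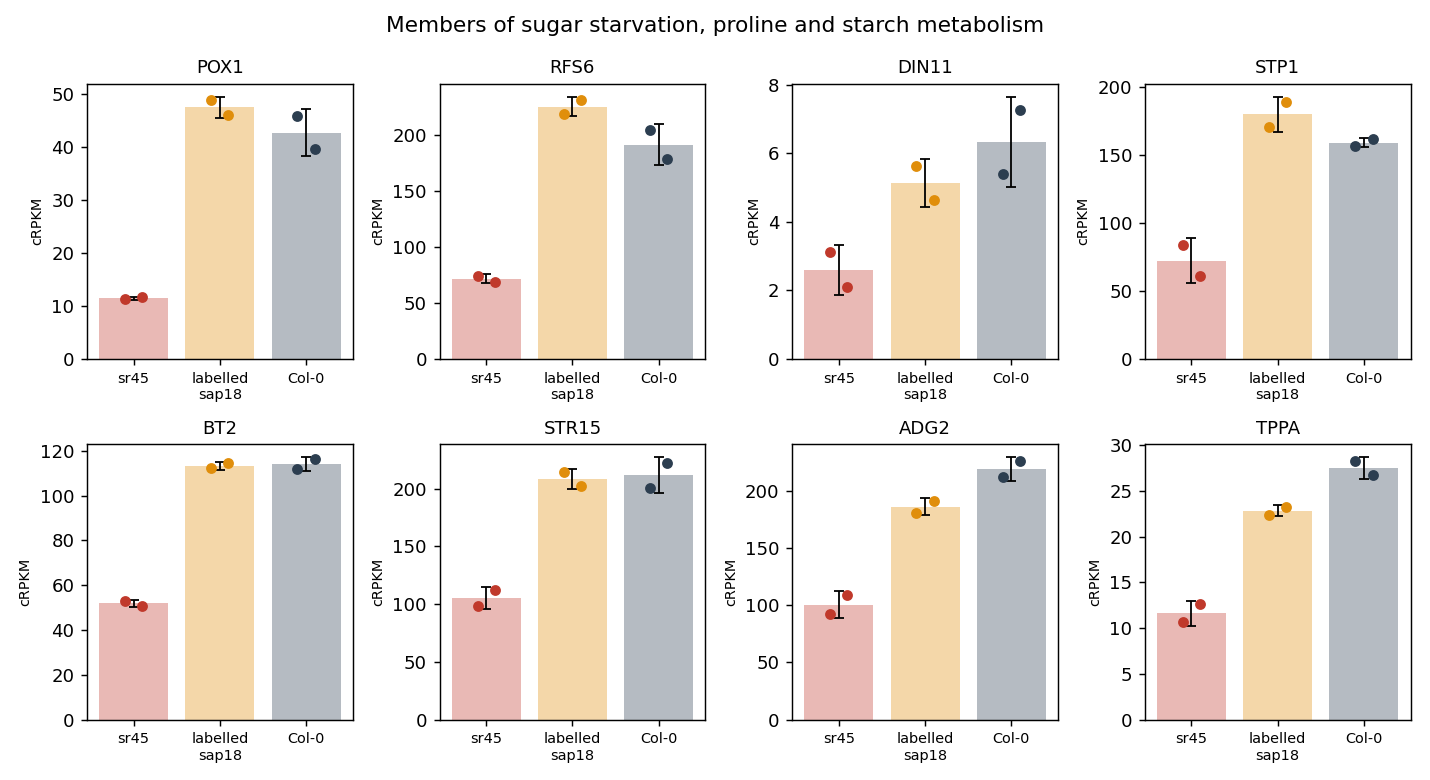
Bars are group means in cRPKM (each y axis starts at 0), error bars the SD of 2 libraries and points the libraries, for 8 members of sugar starvation, proline and starch metabolism in *sr45*, the *sap18*-labelled libraries and Col-0. The *sr45* bar is the lowest in each panel, and for *BT2* and *STR15* the bars of the *sap18*-labelled libraries and of Col-0 are nearly level (ratios 0.994 and 0.985).

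To show what stands before these genes, the 250 bases upstream of the annotated start are given for 5 members that hold an element known from sugar, proline or stress responses. Sequences are from the RefSeq genome TAIR10.1, on the strand of the gene, and capitals mark the match on either strand. *POX1* (chr3:12451557-12451806, minus strand) holds an ACTCAT element on its other strand, the element through which group S1 bZIP factors turn on proline dehydrogenase. *DIN11* (chr3:18393497-18393746, plus strand) holds the G-box CACGTG, bound by bZIP and bHLH factors. *STP1* (chr1:3776986-3777235, plus strand) (on the other strand), and *BT2* (chr3:17910739-17910988, minus strand) hold TATCCA, an element known from sugar-repressed amylase genes of rice. *COR15A* (chr2:17712331-17712580, minus strand), a cold response gene, holds both ACTCAT and a G-box.
POX1: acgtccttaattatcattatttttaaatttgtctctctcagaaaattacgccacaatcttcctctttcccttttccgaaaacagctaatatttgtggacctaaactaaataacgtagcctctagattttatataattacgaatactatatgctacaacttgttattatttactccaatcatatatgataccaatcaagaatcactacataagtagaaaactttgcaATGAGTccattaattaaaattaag
DIN11: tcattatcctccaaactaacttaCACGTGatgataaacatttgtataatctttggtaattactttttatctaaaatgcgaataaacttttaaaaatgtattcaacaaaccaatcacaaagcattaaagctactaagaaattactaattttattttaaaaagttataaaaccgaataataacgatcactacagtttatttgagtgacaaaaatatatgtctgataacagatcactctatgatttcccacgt
STP1: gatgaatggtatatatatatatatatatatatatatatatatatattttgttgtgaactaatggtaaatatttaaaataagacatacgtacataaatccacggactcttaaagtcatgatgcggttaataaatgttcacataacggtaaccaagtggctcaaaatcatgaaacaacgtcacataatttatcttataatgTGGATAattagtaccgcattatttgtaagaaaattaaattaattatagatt
BT2: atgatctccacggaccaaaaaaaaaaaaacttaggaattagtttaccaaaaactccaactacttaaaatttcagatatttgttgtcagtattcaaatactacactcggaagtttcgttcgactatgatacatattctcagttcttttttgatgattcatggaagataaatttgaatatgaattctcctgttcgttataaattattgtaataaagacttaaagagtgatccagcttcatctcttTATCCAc
COR15A: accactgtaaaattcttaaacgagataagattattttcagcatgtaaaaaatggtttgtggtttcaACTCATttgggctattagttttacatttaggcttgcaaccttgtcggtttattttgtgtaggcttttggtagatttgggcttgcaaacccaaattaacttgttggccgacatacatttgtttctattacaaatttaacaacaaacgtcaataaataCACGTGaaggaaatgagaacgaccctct

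The match in *POX1* lies 24 to 19 bases before the start, that in *STP1* 51 to 46 and that in *BT2* 7 to 2, and the G-boxes of *DIN11* and *COR15A* lie 227 to 222 and 28 to 23 bases before it. Both strands of the window between 250 bases before and 50 after the start were searched for these 3 motifs and for the evening element AAAATATCT, bound by clock factors, and none of these contains another. ACTCAT was found in 11 of 49 protein-coding members (22.4%), 15.2% of 427 such genes of the table and 14.7% of 27443 promoters of the genome. The G-box was present in 6 members (12.2%), against 10.3% of the table and 7.68% of the genome, TATCCA in 7 (14.3%), against 19.4% and 16.1%, and the evening element in 1 (2.04%), against 6.09% and 2.82%. With 11 members at most behind a share, these are descriptions, and a match says nothing on whether a factor binds there. Besides *POX1* and *COR15A*, ACTCAT lay upstream of *MLP329*, *DOX1*, *KEA1*, *EXLA1*, *NIT4*, *TAO1*, AT2G32550 and AT5G51390, and in *WCRKC1* after the start.

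Of 30 listed genes of starch and sugar metabolism 5 were in the table and 4 were members, with median ratios of 0.447 in *sr45* and 0.847 in the *sap18*-labelled libraries. For 3 of the 4 both *sap18*-labelled libraries lay under both Col-0 libraries, against 15 of the 50 members (30%) and 56.2% of the table. With 4 genes nothing is read from this. *ADG2* (AT5G19220, also *APL1*), the large subunit of ADP-glucose pyrophosphorylase in leaves, which makes the glucosyl donor for starch, had 91.9 and 108 cRPKM in *sr45*, 181 and 191 in the *sap18*-labelled libraries and 212 and 226 in Col-0. Means were 100.2 ± 11.7, 186 ± 7.21 and 219 ± 10.09 cRPKM (SD, n = 2 each), in the order of those groups, so the *sap18*-labelled libraries also stood apart from Col-0, at 0.850 of it.

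*TPPA* (AT5G51460), a trehalose-6-phosphate phosphatase that removes the sugar signal trehalose-6-phosphate, had 10.7 and 12.6 cRPKM in *sr45*, 22.4 and 23.2 in the *sap18*-labelled libraries and 28.3 and 26.7 in Col-0. *PGL1* (AT1G13700), a 6-phosphogluconolactonase of the pentose phosphate pathway, had 9.36 and 6.34 cRPKM in *sr45*, 15.6 and 14.8 in the *sap18*-labelled libraries and 17.3 and 18.7 in Col-0. The 3 groups kept this order without overlap in both genes. *HKL1* (AT1G50460), a hexokinase-like protein without glucose-phosphorylating activity that tempers growth responses to glucose, had 10.7 and 9.52 cRPKM in *sr45*, while the 19.2 and 21.3 in the *sap18*-labelled libraries overlapped with 20.8 and 21.4 in Col-0.

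The listed starch gene that is no member, the branching enzyme gene *SBE2.1* (AT2G36390), stood lower in both lines. It had 5.44 and 4.93 cRPKM in *sr45*, 8.24 and 9.76 in the *sap18*-labelled libraries and 19.1 and 16.8 in Col-0. Its ratios were 0.289 in *sr45* and 0.501 in the *sap18*-labelled libraries. The gene was left out by name and met the *sr45* ratio of the rule, so it too is described without a test. Across the table limma called 61.0% of the genes lower and 27.5% higher in *sr45*, and 45.8% lower and 29.3% higher in the *sap18*-labelled libraries.

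Of 16 listed genes of proline and nitrogen metabolism 3 were in the table, all members: *POX1*, *GLN1-4* and *NIT4*. *GLN1-4* (AT5G16570), a cytosolic glutamine synthetase that assimilates ammonium, had 2.31 and 2.88 cRPKM in *sr45*, 5.48 and 4.42 in the *sap18*-labelled libraries and 6.10 and 5.22 in Col-0. *NIT4* (AT5G22300), a nitrilase that detoxifies the β-cyanoalanine left over from ethylene synthesis, had 7.52 and 6.42 cRPKM in *sr45*, 14.7 and 12.3 in the *sap18*-labelled libraries and 13.4 and 17.7 in Col-0. In both genes the *sap18*-labelled libraries overlapped with Col-0, with ratios of 0.876 and 0.870.

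Of 12 listed genes of abscisic acid and cold 4 were in the table, all members, and they parted ways in the *sap18*-labelled libraries. *AtMYB70* (AT2G23290), a MYB factor that modulates responses to abscisic acid and auxin, had 4.54 and 2.21 cRPKM in *sr45*, 16.3 and 17.6 in the *sap18*-labelled libraries and 9.58 and 8.99 in Col-0. It had the highest ratio of all members in the *sap18*-labelled libraries, 1.83, and its *sr45* libraries differed 2.05-fold from each other. *PYL5* (AT5G05440), a receptor for abscisic acid, had 11.1 and 7.33 cRPKM in *sr45*, 20.9 and 25.5 in the *sap18*-labelled libraries and 20.6 and 19.2 in Col-0, so the lower *sap18*-labelled library cleared the higher Col-0 library only narrowly.

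*COR15A* (AT2G42540), a chloroplast protein that stabilises membranes in the cold, had 15.6 and 22.3 cRPKM in *sr45*, 37.3 and 34.9 in the *sap18*-labelled libraries and 39.2 and 47.7 in Col-0. *CCD1* (AT3G63520), a carotenoid cleavage dioxygenase that yields volatile apocarotenoids, had 100.2 and 109 cRPKM in *sr45*, 186 and 198 in the *sap18*-labelled libraries and 242 and 209 in Col-0. For both, the *sap18*-labelled libraries lay under Col-0 without overlap, at 0.831 and 0.850 of it.

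The 4 members among 9 listed genes of the cell wall and growth, which were all of the list that the table held, shared a narrow range, between 0.391 and 0.442 of Col-0 in *sr45* and between 0.807 and 0.883 in the *sap18*-labelled libraries, and for all 4 the groups kept the order *sr45*, labelled *sap18*, Col-0 without overlap. The rule largely fixes the place of *sr45* in this order. Of the table, 62.3% lay under Col-0 in *sr45*, and 63.2% lay over *sr45* in the *sap18*-labelled libraries. In the *sap18*-labelled libraries 15 of the 50 members (30%) and 56.2% of the table lay under Col-0, and nothing is read from 4 genes. *PCAP1* (AT4G20260), a plasma membrane protein that binds calcium and phosphoinositides, was the strongest of all members, with 133 and 138 cRPKM in *sr45*, 279 and 263 in the *sap18*-labelled libraries and 282 and 332 in Col-0. *PATL2* (AT1G22530), of a family that binds phosphoinositides and works in membrane traffic, had 10.7 and 11.1 cRPKM in *sr45*, 24.1 and 24.96 in the *sap18*-labelled libraries and 27.4 and 28.2 in Col-0. Its replicates lay close together in each group, with SDs of 0.289, 0.627 and 0.577 cRPKM (n = 2 each).

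*EXLA1* (AT3G45970), an expansin-like wall protein, had 10.7 and 9.48 cRPKM in *sr45*, 19.4 and 22.4 in the *sap18*-labelled libraries and 25.9 and 23.0 in Col-0. *SAUR15* (AT4G38850), a small auxin-induced protein that promotes cell expansion, had 5.42 and 10.4 cRPKM in *sr45*, 15.1 and 14.6 in the *sap18*-labelled libraries and 17.3 and 19.4 in Col-0. The ratio of *SAUR15* in *sr45*, 0.429, rests on libraries that differed 1.91-fold.

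Of 12 listed genes of defence and receptors 7 were in the table and 6 were members. The members' median ratios were 0.415 in *sr45* and 1.27 in the *sap18*-labelled libraries. For 3 of the 6 both *sap18*-labelled libraries exceeded both of Col-0, against 12 of the 50 members (24%) and 34.4% of the table. Nothing is read from 6 genes. All were weak, with mean Col-0 levels between 6.22 and 13.5 cRPKM.

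*DOX1* (AT3G01420), a fatty acid alpha-dioxygenase that pathogens induce, had 3.17 and 2.67 cRPKM in *sr45*, 11.8 and 16.5 in the *sap18*-labelled libraries and 8.13 and 7.86 in Col-0. *ATKTI1* (AT1G73260), a Kunitz trypsin inhibitor that limits cell death after infection, had 1.60 and 2.43 cRPKM in *sr45*, 9.21 and 10.01 in the *sap18*-labelled libraries and 5.85 and 6.58 in Col-0. *CRK19* (AT4G23270), a cysteine-rich receptor-like kinase, had 3.33 and 3.62 cRPKM in *sr45*, 8.14 and 11.7 in the *sap18*-labelled libraries and 7.36 and 6.68 in Col-0. These 3 went in opposite directions from Col-0 in the lines, with ratios of 0.365, 0.325 and 0.496 in *sr45* and 1.77, 1.55 and 1.41 in the *sap18*-labelled libraries.

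The other 3 overlapped with Col-0 in the *sap18*-labelled libraries. *MLP329* (AT2G01530), a major latex protein-like gene, had 1.82 and 1.96 cRPKM in *sr45*, 9.66 and 6.99 in the *sap18*-labelled libraries and 5.59 and 9.24 in Col-0. *LYK3* (AT1G51940), a LysM receptor-like kinase that dampens immunity, had 3.82 and 4.70 cRPKM in *sr45*, 7.47 and 8.92 in the *sap18*-labelled libraries and 8.43 and 8.83 in Col-0. *TAO1* (AT5G44510), an intracellular immune receptor of the TIR class, had 5.66 and 6.88 cRPKM in *sr45*, 10.4 and 12.2 in the *sap18*-labelled libraries and 15.5 and 11.5 in Col-0.

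*MLP329* has a neighbouring copy, *MLP328* (AT2G01520), with 89.7% identical coding bases, the closest match of any member, so the counting of reads between them is uncertain. *MLP328* had 3.59 and 6.10 cRPKM in *sr45*, 19.0 and 13.8 in the *sap18*-labelled libraries and 6.29 and 9.14 in Col-0. It rose in the *sap18*-labelled libraries (log2 change 0.999, standard error 0.27, adjusted p = 0.011 from limma), while its change of -0.59 in *sr45* did not pass (adjusted p = 0.068 from limma).

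Of 13 listed plastid and redox genes the 5 in the table were all members, with median ratios of 0.476 in *sr45* and 0.962 in the *sap18*-labelled libraries, and 4 of the 5 overlapped with Col-0 there. *WCRKC1* (AT5G06690), an atypical thioredoxin, had 6.58 and 5.69 cRPKM in *sr45*, 15.0 and 15.5 in the *sap18*-labelled libraries and 14.3 and 17.4 in Col-0. *KEA1* (AT1G01790), a potassium efflux antiporter of the inner chloroplast envelope, had 19.4 and 16.9 cRPKM in *sr45*, 37.5 and 41.9 in the *sap18*-labelled libraries and 39.5 and 36.7 in Col-0. Their ratios in the *sap18*-labelled libraries, 0.962 and 1.04, lay on either side of 1.

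*NOL* (AT5G04900), a chlorophyll b reductase that opens chlorophyll b breakdown, had 11.6 and 6.81 cRPKM in *sr45*, 19.9 and 18.1 in the *sap18*-labelled libraries and 17.7 and 20.8 in Col-0. *GRXC13* (AT2G47880), a CC-type glutaredoxin, had 17.5 and 10.2 cRPKM in *sr45*, 32.0 and 25.7 in the *sap18*-labelled libraries and 35.5 and 31.1 in Col-0. In both, the *sr45* libraries were far apart, 1.70-fold and 1.72-fold. *CPX2* (AT4G03205), a coproporphyrinogen oxidase gene of tetrapyrrole synthesis, had 11.1 and 12.2 cRPKM in *sr45*, 18.4 and 20.7 in the *sap18*-labelled libraries and 21.3 and 27.1 in Col-0, and at 0.807 it lay just inside the *sap18* threshold.

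Among the 19 members that stand in none of these lists, besides *SR45*, *GDPD2* (AT5G41080), a glycerophosphodiester phosphodiesterase, of a family that acts when phosphate runs low, had 3.39 and 4.18 cRPKM in *sr45*, 17.98 and 14.6 in the *sap18*-labelled libraries and 13.7 and 10.3 in Col-0. AT4G16870, annotated as a pseudogene in TAIR10.1, had 3.54 and 3.88 cRPKM in *sr45*, 12.4 and 15.2 in the *sap18*-labelled libraries and 11.5 and 11.6 in Col-0. *UGT85A1* (AT1G22400), a UDP-glycosyltransferase, had 3.24 and 1.51 cRPKM in *sr45*, 8.76 and 7.86 in the *sap18*-labelled libraries and 8.66 and 5.71 in Col-0. The 3 had ratios of 0.315, 0.321 and 0.330 in *sr45*, and for *GDPD2* and AT4G16870 both *sap18*-labelled libraries exceeded Col-0.

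AT1G10020, which encodes a protein of the DUF1005 family, had 12.5 and 8.92 cRPKM in *sr45*, 36.3 and 39.4 in the *sap18*-labelled libraries and 23.0 and 21.4 in Col-0. AT1G02660, of the alpha/beta-hydrolase superfamily, had 6.14 and 4.65 cRPKM in *sr45*, 17.0 and 17.6 in the *sap18*-labelled libraries and 11.0 and 11.2 in Col-0. With ratios of 1.71 and 1.56 these 2 belong to the 5 members over 1.5 in the *sap18*-labelled libraries, with *AtMYB70*, *DOX1* and *ATKTI1*.

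AT1G06620, another 2-oxoglutarate-dependent dioxygenase gene, had 3.57 and 2.95 cRPKM in *sr45*, 6.62 and 5.70 in the *sap18*-labelled libraries and 9.27 and 6.08 in Col-0. *DUF6* (AT2G47230), an agenet domain gene, had 2.995 and 2.16 cRPKM in *sr45*, 4.92 and 5.62 in the *sap18*-labelled libraries and 6.73 and 6.34 in Col-0. Their ratios in the *sap18*-labelled libraries, 0.804 and 0.806, were the lowest of all members.

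The remaining 11 members, *2A6*, *LTP10*, *ATL66*, AT2G29670, AT2G32160, AT2G32550, AT3G47010, AT4G10060, AT5G51390, AT5G52882 and AT1G70620, ranged between 0.382 and 0.488 of Col-0 in *sr45* and between 0.826 and 1.07 in the *sap18*-labelled libraries. Their mean Col-0 levels ran between 7.01 and 110.4 cRPKM. For 7 of them the *sap18*-labelled libraries overlapped with Col-0 and for 4 they lay under it, against 23 and 15 of the 50 members.

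In the *sap18*-labelled libraries the members thus fell into 3 sets. Both libraries exceeded both Col-0 libraries for 12 members (24%), against 34.4% of the table. They lay under both for 15 (30%), against 56.2%. For 23 (46%) they overlapped, against the much smaller rest of the table. The 12 had ratios between 1.11 and 1.83 with a median of 1.38, and the 15 between 0.806 and 0.883 with a median of 0.845. As the threshold of 0.8 removes genes that stood lower, nothing is read from these shares. Without Col-0 replicate 2 the count over Col-0 was 19, and the count under it was 25 without Col-0 replicate 1 and 23 without Col-0 replicate 2, although with fewer libraries to clear such counts can only rise or stay. The split depends on the scaling. As an alternative, each line was shifted by its median log2 ratio over the genes called in the other line alone. This median was -0.52 in the *sap18*-labelled libraries and -0.17 in *sr45*, and subtracting it left 42 members over Col-0 and 0 under it. The shift of the *sap18*-labelled libraries, a ratio of 0.70, lies under the threshold of 0.8, so the 0 was fixed in advance. It also came from genes of the same table, and nothing is read from these counts.

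**Figure D4:**
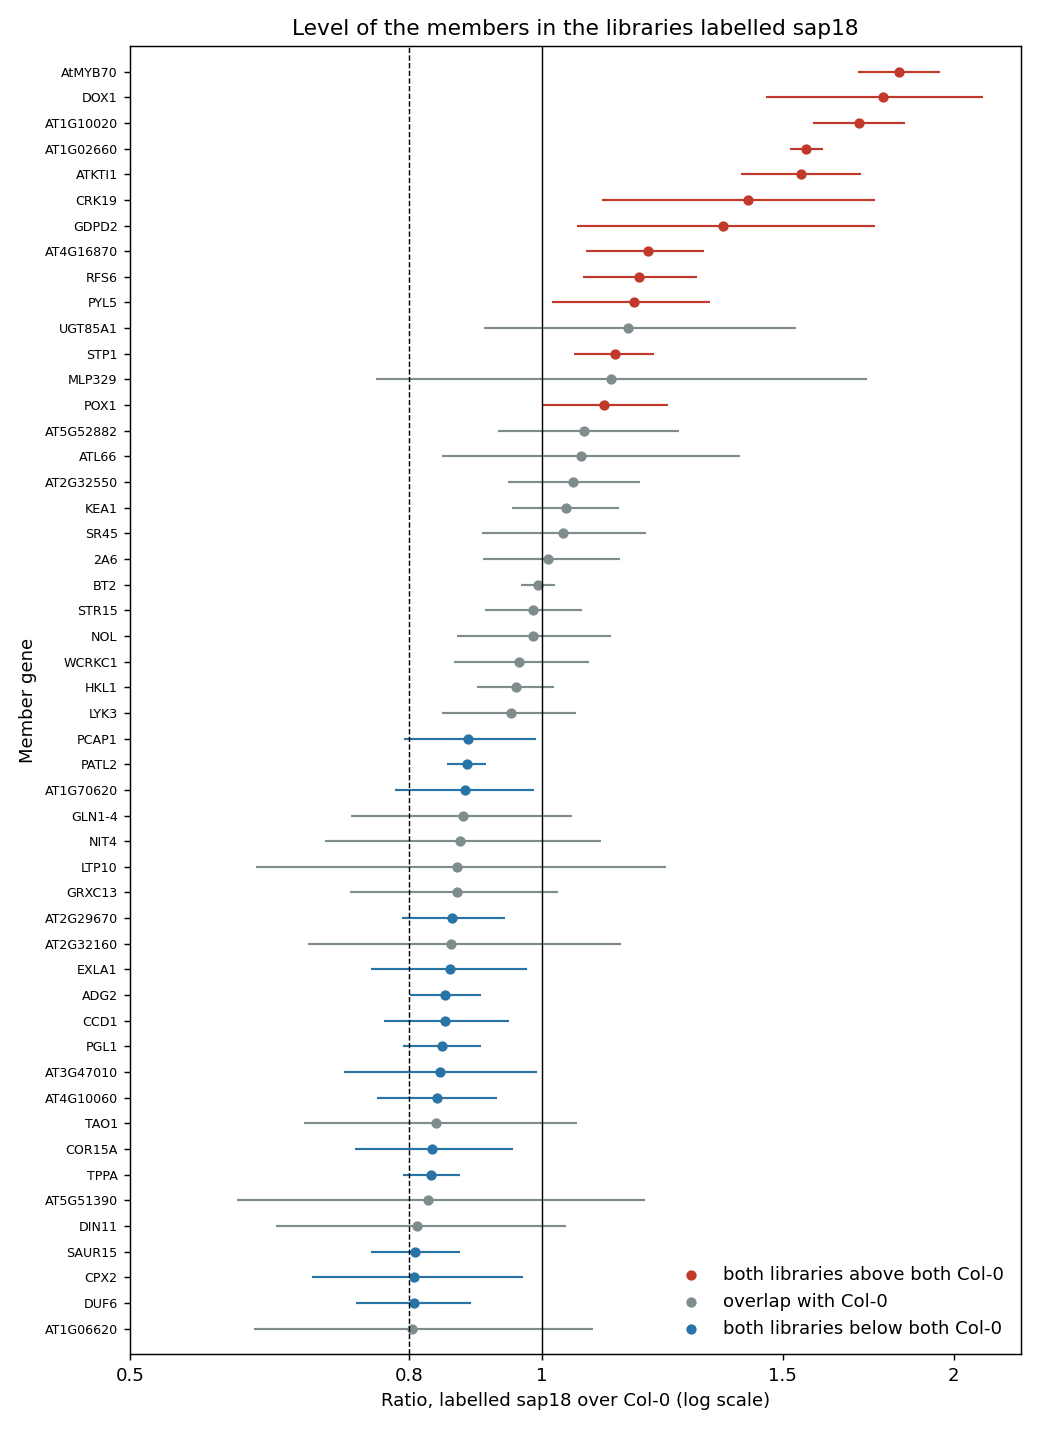
Each row is a member, the point its ratio of means in the *sap18*-labelled libraries over Col-0 on a log axis, and the line spans the 4 ratios of single libraries, with a dashed line at 0.8. Both libraries lie over Col-0 for 12 members (red), under it for 15 (blue) and overlap for 23 (grey). After the rescaling, which is not drawn, 42 lie over it and 0 under it, and the shift and the threshold fix this 0.

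The 12 members over Col-0 in the *sap18*-labelled libraries were *POX1*, *RFS6*, *STP1*, *GDPD2*, AT4G16870, *ATKTI1*, *AtMYB70*, *DOX1*, *PYL5*, *CRK19*, AT1G10020 and AT1G02660. Their median ratio in *sr45* was 0.370, that of the 15 members under Col-0 was 0.442, and that of the 23 that overlapped was 0.430. Because both ratios have the same Col-0 libraries in the denominator, these values are given side by side and no relation is read from them.

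Just inside the *sr45* threshold lay *LYK3* (0.494), *CRK19* (0.496) and *STR15* (0.498), and just outside it, among genes that met the other ratio, AT3G19680 (0.518), *MLP328* (0.628) and *AGP17* (0.680). Just inside the *sap18* threshold lay AT1G06620 (0.804), *DUF6* (0.806) and *CPX2* (0.807), and just outside it AT4G26530 (0.795), AT5G22920 (0.794) and AT1G14200 (0.789). *MYC2* (AT1G32640), a jasmonate transcription factor gene left out by name, had 10.2 and 9.78 cRPKM in *sr45*, 15.5 and 18.4 in the *sap18*-labelled libraries and 25.7 and 16.2 in Col-0.

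Membership changed when a library was left out. Between 36 genes (without Col-0 replicate 1) and 50 (without *sap18* replicate 2) then met the rule, with between 33 and 45 of the original members among them. In all 6 such sets stayed 17 members: *SR45*, *MLP329*, *POX1*, *GDPD2*, AT4G16870, *ATKTI1*, *UGT85A1*, *AtMYB70*, *DOX1*, *RFS6*, *WCRKC1*, *PATL2*, *2A6*, *TPPA*, *PCAP1*, *BT2* and *ADG2*. The other 33 were lost at least in 1 set. The *sr45* libraries of 8 members differed more than 1.5-fold from each other, up to 2.51-fold for AT2G32550 and 2.15-fold for *UGT85A1*, against 5 members in Col-0 and 0 in the *sap18*-labelled libraries.

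Gene structure did not enter the choice of the members. They had a median of 3 introns, as did the genes of the table and all 27444 protein-coding genes of TAIR10.1, and 7 of 49 (14.3%) had none, against 19.9% of the table and 20.5% of the genome. Their median exonic length was 1931 bases, against 1598 and 1516.5, and 20 (40.8%) had a single annotated transcript, against 47.3% and 61.0%. *KEA1* had the most introns, 20, and *PCAP1* the most annotated transcripts, 10. Splicing itself was not analysed here.

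Members were spread over the genome, with 14, 8, 8, 7 and 13 on chromosomes 1 to 5, where the table has 120, 88, 74, 77 and 91 genes. The closest pair, AT5G51390 and *TPPA*, lay 22.4 kb apart, and the next, *UGT85A1* and *PATL2*, 48.5 kb. Besides *MLP329* and *DIN11*, 3 members had a copy with at least 85% identical coding bases, *CRK19* with *CRK20* (87.3%), *EXLA1* with *EXLA3* (86.1%) and AT2G32160 with AT2G32170 (85.7%), and no member had one at 90%. Reads of these genes may be divided between the copies. The closest copy of AT1G06620 was another member, *2A6*, at 76.1%.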

How the data were processed

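mRNA of whole seedlings was measured in 6 libraries, 2 per group, and groups were taken from the sample descriptions. The authors mapped reads with vast-tools 2.5 to an annotation built on Ensembl Plants 31 (TAIR 10 in the submitters' processing notes), and deposited RPKM values corrected for mappable positions (cRPKM) after quantile normalization. The deposited table holds 454 selected genes and no reads, so the depth behind a value is unknown and its precision shows only in the spread of 2 libraries. Most of these genes were called by limma in *sr45*, so a share of the table is a share among mostly changed genes, not among all expressed genes. No source says whether replicates came from separate cultures, and p-values then cover only the variation among these libraries, which may be technical. No columns were left without a sample (0).

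Members and gene lists were chosen with earlier results of these data known. Ratios are of group means. limma 3.58.1 in R 4.3.3 was fitted to log2(cRPKM + 1) of all 3 groups, with Benjamini-Hochberg adjustment at 0.05 over the 454 genes. It served for standard errors, for calls over the table and for the p-values of *MLP328*, a listed gene outside the *sr45* ratio of the rule. The fit was tested on simulated data with known changes. The pseudocount understates changes of weak genes. Values in every library are given for *SR45*, members in a list, the 10 lowest in *sr45*, the 8 highest in the *sap18*-labelled libraries and the 3 nearest to each threshold, as well as *SAP18*, the 3 genes that met both ratios but were left out by name and up to 4 others per list. Symbols come from the table and RefSeq TAIR10.1, in which all 50 members and 450 loci of the table were found, as do coordinates, promoters and gene structures. Coding sequences were compared with blastn 2.17.0, counting matches over at least 50% of the sequence. Python 3.11.15, numpy 2.4.6, pandas 2.3.3 and matplotlib 3.10.9 did the remaining computing and drawing.

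Alternatives covered both thresholds, the form of the ratio, a pseudocount, filters on low values, rescaling, a replicate block, the promoter window and leaving out each library.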

Additional observations from a re-analysis of the deposited data

How the results depend on the processing

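With the *sr45* ratio limited to 0.45, 29 genes remained of the 50, and with the ratio in the *sap18*-labelled libraries raised to 0.9 there were 26. A fold threshold of 1.5 was met by all 50 members in *sr45*. The ratio of at most 0.5 in the rule largely fixes this count. The share of the table was not counted at this threshold, so nothing is read from it. When each line was rescaled, which moved the median ratio of members in the *sap18*-labelled libraries to 0.45 and in *sr45* to -1.03 on the log2 scale, 9 members met the fold criterion, 42 lay over Col-0 and 0 under it in the *sap18*-labelled libraries, limma called 88 genes of the table lower there (208 without rescaling), and 71 genes met the rule, 27 of them members. The cause was not tested.

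Leaving out each library in turn gave between 36 and 50 genes by the rule, between 17 and 33 members at the fold criterion, median log2 ratios between -1.28 and -1.14 in *sr45* and between -0.10 and -0.05 in the *sap18*-labelled libraries, between 12 and 19 members over Col-0 and between 15 and 25 under it. Fewer ratios are then required, so counts of members that meet the criterion or do not overlap can only rise or stay. limma calls lay between 272 and 280 lower in *sr45*, and between 101 and 139 higher and 154 and 222 lower in the *sap18*-labelled libraries. With a replicate block limma called 278, 134 and 207 genes, against 277, 133 and 208, although same-numbered libraries did not deviate together (correlations of -0.035, -0.106 and 0.080). The other alternatives left these results within 1.5 times or 1 SD. Among them, a pseudocount of 1 lost 12 of the 50 members, and a limit above 10 cRPKM in both Col-0 libraries lost 15. Each ratio rests on 2 libraries per group.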
